A study of Mus musculus with 8 samples.

Results

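Lipid-associated macrophages are cells that gather in fatty or injured liver, take up lipid and debris, and carry a shared set of transcripts. The expression of 10 genes used as their markers was followed here: Trem2, Gpnmb, Cd63, Cd9, Spp1, Lgals3, Itgax, Ctsd, Ctsb and Lpcat2. They were chosen by name and each matched a single entry among the 52636 genes in the files. All 10 passed the filter on low counts. Whole liver of C57BL/6 mice at 8 weeks of age was measured by RNA sequencing in 8 libraries. In 4 of them, called WT, both copies of Ctcf carried loxP sites and the albumin-driven Cre recombinase was absent (CTCF fl/fl Albcre-). In the other 4, called cKO, the same floxed alleles were combined with that Cre, which acts in albumin-expressing cells such as hepatocytes (CTCF fl/fl Albcre+). CTCF is a DNA-binding protein that helps to fold chromatin. No library carried the Cre on unfloxed Ctcf, and thus effects of the Cre and of the deletion cannot be told apart. The labels name no sex and do not say whether each library is a separate mouse, so the p-values speak only of the spread among these libraries, which may be technical.

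Trem2 is a surface receptor for lipids and lipoproteins that signals through the adaptor Tyrobp, and cells that carry it enlarge their lysosomes and switch on genes for lipid handling. In liver these macrophages largely come from monocytes and stand beside the resident Kupffer cells. Several of the markers are not restricted to macrophages: the cathepsins are made by most cells, bile duct cells secrete Spp1, and Itgax also marks dendritic cells. Macrophages do not express albumin, so Ctcf was not the target of deletion in them. In whole liver, fewer cells of a type and less RNA per cell cannot be told apart.

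Totals of assigned counts ran from 43899481 to 50376750 per library in WT and from 50258178 to 57279620 in cKO. By an exact two-sided permutation test over the 4 and 4 libraries this gave p = 0.0571, where 0.0286 is the smallest value the design can reach. Levels below are in CPM, counts scaled to a common library total. The floor set by a count of 0 lay between 0.0524 and 0.0683 CPM and covers counting error only. Ctcf itself stood at 16.0 to 16.9 CPM in WT and 10.9 to 13.1 CPM in cKO, so every cKO library lay below every WT library (log2 change -0.44, SE 0.08, edgeR adjusted p = 0.00177). That call was lost with limma on log2(TPM + 1), where the change was -0.15 (adjusted p = 0.147). Of 9 hepatocyte markers, 4 were lower and 1 higher in cKO. The plasma protein genes Ttr, Serpina1c and Apoa1 had log2 changes of -0.68, -0.62 and -0.35, the transcription factor Hnf4a one of -0.25 and the urea cycle enzyme Cps1 one of 0.58. The call of Hnf4a was lost on leaving out any 1 library except WT replicate 1, that of Apoa1 without cKO replicate 3 and that of Cps1 without WT replicate 3, and library size alone left 2 lower. The summed level of the 9, with Alb as the largest part, was 87560 to 115801 CPM in WT and 98784 to 110445 CPM in cKO. WT replicate 4 stood apart in macrophage genes: it had the highest WT level of Adgre1, Csf1r, Cd68, Tyrobp and Itgam, and results that rest on it are given with and without it.

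Of the 10 markers, 6 rose and 1 fell in cKO, and 3 did not pass the test (edgeR adjusted p under 0.05). Cd63 rose most, followed by Gpnmb, Itgax, Cd9, Trem2 and Ctsd, whereas Spp1 fell. Among all 15562 genes tested, 15.2% were called higher and 14.9% lower, or 30.1% in either direction. The median log2 change of the 10 was 0.57, beside -0.01 for all tested genes. The WT and cKO libraries did not overlap in CPM for 6 markers, Gpnmb, Cd63, Cd9, Itgax, Ctsd and Spp1, and this held for 30.6% of all tested genes. In TPM, a level per transcript length, the cKO libraries lay above all WT libraries for 8 markers and below for 1, beside 25.8% and 5.78% of all tested genes, and Lpcat2 overlapped. The balance of calls over all genes depended on the scaling: 2367 genes were higher and 2322 lower with TMM factors, against 3604 and 1318 with library size alone, which moved the median log2 change of all genes to 0.10. The markers called higher numbered 5 to 7 and the markers called lower 1 in each of 21 alternative settings.

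**Figure D1:**
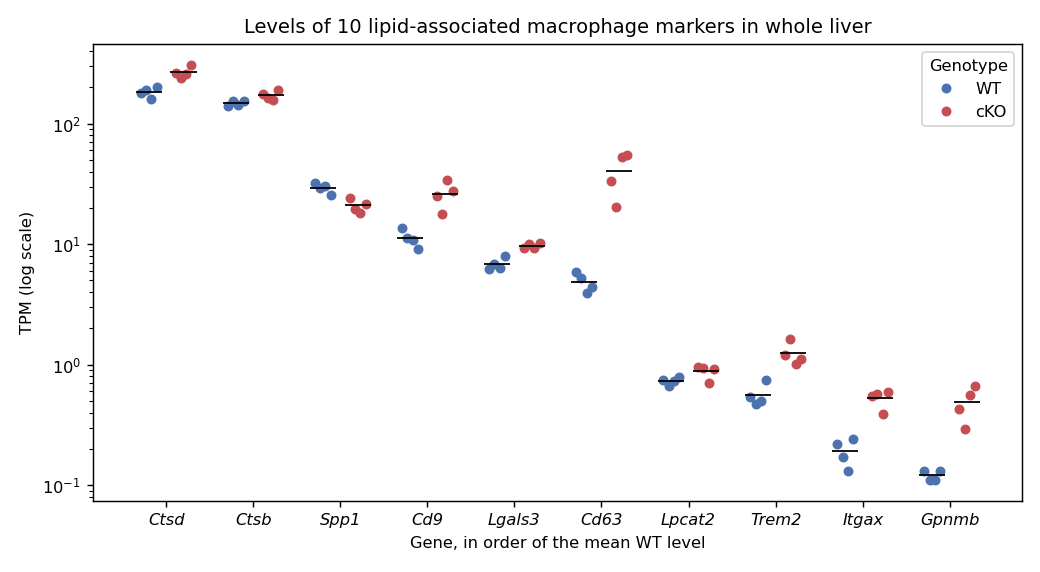
TPM of the 10 markers in each library (log scale), with WT in blue, cKO in red and a bar at each mean (n = 4 per genotype). Cd63 moves from 4.84 TPM in WT to 40.3 TPM in cKO, while Spp1 moves from 29.5 to 21.0 TPM.

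Levels of different genes were compared in TPM, which divides by transcript length. In WT the order of mean levels was Ctsd (184 ± 18.1 TPM), Ctsb (148 ± 7.68), Spp1 (29.5 ± 2.79), Cd9 (11.2 ± 1.88), Lgals3 (6.86 ± 0.81), Cd63 (4.84 ± 0.84), Lpcat2 (0.733 ± 0.054), Trem2 (0.563 ± 0.122), Itgax (0.190 ± 0.050) and Gpnmb (0.120 ± 0.012). The library ranges of Lpcat2 and Trem2 overlapped, as did those of Itgax and Gpnmb, and other neighbours did not overlap. In cKO the order changed in the middle. Cd63 (40.3 ± 16.4 TPM) came after the cathepsins and ahead of Cd9 (26.2 ± 6.69) and Spp1 (21.0 ± 2.56), with overlapping ranges for each of these neighbours. Trem2 (1.24 ± 0.27 TPM) stood above Lpcat2 (0.880 ± 0.121 TPM) without overlap. The genes most used to define the cell state, Trem2, Gpnmb and Itgax, were thus at or near the bottom of the order in both genotypes, with 15 to 104 reads per library.

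The 10 genes lie on 7 chromosomes of mm10 (GRCm38, RefSeq). Trem2 spans chromosome 17, 48346401 to 48352276, and Cd63 spans chromosome 10, 128896231 to 128912822. Gpnmb (chromosome 6, 49036518 to 49058182) and Cd9 (chromosome 6, 125460266 to 125494760) share a chromosome at a distance. Itgax (chromosome 7, 128129526 to 128150657) and Ctsd (chromosome 7, 142375910 to 142387827) do so too, as do Lgals3 (chromosome 14, 47373860 to 47386167) and Ctsb (chromosome 14, 63122462 to 63145923). Spp1 is on chromosome 5, 104435111 to 104441053, and Lpcat2 on chromosome 8, 92855313 to 92919279.

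Since 6 of the markers were higher in cKO, the promoters of 5 of them are shown, 5′ to 3′ on the gene's strand. Each window holds 250 bases before and 30 bases after a start site in RefSeq's annotation of GRCm38.p6. The window of Cd63 starts at 128909095, inside the span given above, so it belongs to an internal start site. Capitals mark the letters TGANTCA, a loose form with any middle base that includes the sites bound by AP-1 factors. They also mark CACGTG, the E-box form that MiT/TFE regulators of lysosomal genes bind. Both strands were searched, and these forms do not overlap each other.
Gpnmb, chr6:49036268-49036547, plus strand.
Gpnmb: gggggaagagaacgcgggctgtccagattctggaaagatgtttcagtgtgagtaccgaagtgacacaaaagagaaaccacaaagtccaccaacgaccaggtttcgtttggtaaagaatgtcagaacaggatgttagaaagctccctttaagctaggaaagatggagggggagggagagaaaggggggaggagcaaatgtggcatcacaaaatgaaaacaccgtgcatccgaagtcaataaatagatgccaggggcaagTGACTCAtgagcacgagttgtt
Itgax, chr7:128129300-128129579, plus strand.
Itgax: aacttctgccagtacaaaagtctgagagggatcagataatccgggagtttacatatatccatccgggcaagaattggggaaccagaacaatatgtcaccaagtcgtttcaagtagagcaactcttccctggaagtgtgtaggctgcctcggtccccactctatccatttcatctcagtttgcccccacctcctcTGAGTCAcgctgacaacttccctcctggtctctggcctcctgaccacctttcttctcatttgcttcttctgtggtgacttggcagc
Trem2, chr17:48346151-48346430, plus strand.
Trem2: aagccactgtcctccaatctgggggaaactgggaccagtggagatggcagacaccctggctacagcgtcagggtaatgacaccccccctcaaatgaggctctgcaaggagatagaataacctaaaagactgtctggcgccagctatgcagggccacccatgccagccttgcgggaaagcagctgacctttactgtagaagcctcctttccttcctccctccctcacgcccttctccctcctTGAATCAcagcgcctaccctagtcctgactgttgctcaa
Ctsd, chr7:142387798-142388077, minus strand.
Ctsd: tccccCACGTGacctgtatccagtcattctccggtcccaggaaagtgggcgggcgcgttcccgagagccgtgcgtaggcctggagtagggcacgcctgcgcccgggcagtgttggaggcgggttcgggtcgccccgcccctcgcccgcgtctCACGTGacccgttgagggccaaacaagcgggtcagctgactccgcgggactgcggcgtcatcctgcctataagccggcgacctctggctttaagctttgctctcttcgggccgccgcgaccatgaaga
Cd63, chr10:128909095-128909374, plus strand.
Cd63: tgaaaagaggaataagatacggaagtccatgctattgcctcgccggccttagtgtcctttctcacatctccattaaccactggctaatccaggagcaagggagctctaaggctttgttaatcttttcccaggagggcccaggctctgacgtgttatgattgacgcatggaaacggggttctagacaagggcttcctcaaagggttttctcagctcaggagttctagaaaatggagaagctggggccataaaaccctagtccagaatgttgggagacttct
Windows were read for 9 of the 10 genes, all but Ctsb, and annotation with several start sites gave several windows to some genes, among them Spp1. TGANTCA occurred in 3 of the 9, Gpnmb (first base at position 9 after the start), Itgax (at -56) and Trem2 (at -9), and in 7.46% of 32851 such windows. The middle base was C in Gpnmb, G in Itgax and A in Trem2, and not every middle base need make an AP-1 site. CACGTG occurred in 1 of the 9, Ctsd, at -245 and -98, and in 6.79% of windows. GAGGAA, a core recognised by the myeloid factor PU.1, occurred in 3 of the 9 (Trem2, Cd63 and Spp1) and in 26.0% of windows. The single form of the CTCF core motif that was searched occurred in 0 of the 9 and in 0.0365% of windows, 12 of 32851. A form this rare would be absent from almost any 9 genes. The count of 0 therefore cannot show whether these promoters hold CTCF sites, and looser forms were not searched. The matches of all these motifs describe the letters only.

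Trem2, the receptor itself, had 0.612, 0.425, 0.688 and 0.843 CPM in WT replicates 1 to 4 and 1.19, 1.36, 0.831 and 0.988 CPM in cKO replicates 1 to 4. The cKO libraries were higher as a group, but the highest WT library and the lowest cKO library overlapped slightly. The mean rose from 0.642 ± 0.174 to 1.09 ± 0.23 CPM (SD, n = 4 each), which is 0.76 in log2 units (SE 0.25, edgeR adjusted p = 0.0371). The call was lost without WT replicate 1, 2 or 3 or cKO replicate 1, 2 or 4 (edgeR adjusted p 0.0584 to 0.0954) and with the replicate number as a block (0.069). In TPM the genotypes did not overlap, with 0.47 to 0.74 in WT and 1.02 to 1.63 in cKO.

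Itgax encodes the CD11c integrin subunit, which pairs with the common chain Itgb2. It had 0.816, 0.614, 0.481 and 0.585 CPM in the WT libraries and 1.65, 1.65, 1.24 and 1.38 CPM in the cKO libraries. All cKO libraries were above all WT libraries. The log2 change of Itgax was 1.23, with an SE of 0.21 and an edgeR adjusted p of 0.0017.

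Gpnmb, a transmembrane glycoprotein induced in lipid-laden phagocytes, had 0.367, 0.354, 0.367 and 0.398 CPM in WT. It had 1.30, 0.882, 1.61 and 1.77 CPM in cKO. The WT libraries were nearly equal, with a coefficient of variation of 5.04%, whereas the cKO libraries spread to 28.1% and stood clear of WT. The log2 change was 1.90 (SE 0.25, edgeR adjusted p = 0.000408).

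Cd63 and Cd9 are tetraspanins, membrane proteins with 4 passes; Cd63 sits mainly in late endosomes and lysosomes and Cd9 mainly at the cell surface. Cd63 had 5.02, 4.37, 3.42 and 3.75 CPM in WT and 25.2, 15.8, 38.4 and 39.9 CPM in cKO. The lowest cKO library, replicate 2, was still well above the highest WT library. The means were 4.14 ± 0.71 and 29.8 ± 11.4 CPM, a ratio of 7.21 and a log2 change of 2.85 (SE 0.33, edgeR adjusted p = 0.00114). Cd9 had 12.3, 9.89, 10.2 and 8.43 CPM in WT and 20.8, 15.6, 27.0 and 22.6 CPM in cKO. Again no libraries overlapped and cKO replicate 2 was the lowest of its group. The log2 change of Cd9 was 1.07 (SE 0.17, edgeR adjusted p = 0.00162).

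The log2 ratio of Cd63 to Cd9 in TPM went from -1.22 ± 0.19 in WT to 0.55 ± 0.35 in cKO (n = 4 each), a difference of 1.77 (exact two-sided permutation test, p = 0.0286, adjusted over 6 gene pairs p = 0.0429). It was negative in each of the 4 WT libraries and positive in each of the 4 cKO libraries, so Cd63 overtook Cd9. Of 15 other tetraspanins tested, 3 were higher and 1 lower, near the 30.1% of all tested genes called in either direction. Tspan8, an epithelial member, rose by log2 2.65, Tspan3 had a log2 change of 0.61 and Cd151 one of 0.31, and Tspan33 fell by 1.20 on the log2 scale. The call of Cd151 was lost without WT replicate 2 (edgeR adjusted p = 0.052). With limma on log2(TPM + 1), 8 of the 15 were higher and 1 lower, where calls over all 15562 genes also moved, to 3880 higher and 878 lower.

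Spp1, which encodes the secreted protein osteopontin, went against the other markers. It had 38.3, 34.3, 36.7 and 30.3 CPM in WT and 25.7, 21.2, 18.6 and 21.8 CPM in cKO, so that every cKO library was below every WT library. The log2 change was -0.68 (SE 0.10, edgeR adjusted p = 0.000836). Bile duct cells are another source of Spp1 in liver, and of 8 tested markers of these cells 4 were higher and 0 lower, also with DESeq2 and limma-voom. The count was 4 higher and 1 lower without WT replicate 4 and with the replicate block. Epcam rose from 1.10 ± 0.36 to 3.13 ± 0.33 CPM, and Krt7, Cldn4 and Tspan8 had log2 changes of 1.13, 2.90 and 2.65. The summed level of the 9 bile duct markers was 17.4 to 25.1 CPM in WT and 23.0 to 26.4 CPM in cKO. The log2 ratio of Spp1 to Epcam in TPM was 5.64 ± 0.36 in WT and 3.39 ± 0.21 in cKO, a difference of -2.25 (exact two-sided permutation test, p = 0.0286, adjusted p = 0.0429). In TPM every cKO library was below every WT library for Spp1 and above for Epcam. The ratio therefore had to separate, and its test adds nothing to the values of each gene. The part of bile duct cells in the level of Spp1 was not tested.

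Lgals3, a lectin that binds galactosides and is released by activated macrophages, did not pass. It had 5.08, 5.33, 4.77 and 6.42 CPM in WT and 6.64, 7.14, 6.25 and 6.87 CPM in cKO. Only WT replicate 4 reached into the cKO range. The log2 change was 0.32 (SE 0.11, edgeR adjusted p = 0.0517), and without WT replicate 4 it was 0.41 with an adjusted p of 0.0125. It also passed under 10 of the other 20 alternatives, and in TPM the genotypes did not overlap (6.27 to 8.03 and 9.27 to 10.1). Of 5 other galectin-related genes tested, 2 were higher and 1 lower: Lgals1 rose from 7.74 ± 0.99 to 16.1 ± 3.83 CPM, Lgals3bp had a log2 change of 0.44 and Lgals4 one of -0.32. The call of Lgals4 was lost under 15 alternatives, among them leaving out any library except WT replicate 4, and that of Lgals3bp with an offset for effective length (edgeR adjusted p = 0.0691).

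The cathepsins are proteases of the lysosome. Ctsd, an aspartic protease, had 325, 345, 295 and 369 CPM in WT and 434, 401, 412 and 492 CPM in cKO. The groups did not overlap, and the log2 change was 0.38 (SE 0.09, edgeR adjusted p = 0.00902). Ctsb, a cysteine protease, had 477, 481, 476 and 477 CPM in WT and 482, 439, 411 and 473 CPM in cKO. These ranges overlapped, and Ctsb changed by a log2 value of -0.08, which did not pass (SE 0.07, edgeR adjusted p = 0.418). The sign of Ctsb depended on the scaling: limma on log2(TPM + 1) gave 0.21 (adjusted p = 0.0637) and library size alone 0.02. The log2 ratio of Ctsd to Ctsb in TPM rose from 0.31 ± 0.09 to 0.64 ± 0.07, by 0.33 (exact two-sided permutation test, p = 0.0286, adjusted p = 0.0429). The 2 cathepsins thus differed in their change within the same libraries.

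Lpcat2, an acyltransferase of phospholipid and platelet-activating factor synthesis, had 1.53, 1.35, 1.38 and 1.48 CPM in WT. It had 1.68, 1.76, 1.24 and 1.55 CPM in cKO, where replicate 3 was below all WT libraries. The log2 change was 0.12 (SE 0.16, edgeR adjusted p = 0.605). Among 7 other enzymes of this kind, 3 were higher and 0 lower, also 0 lower with DESeq2, limma-voom or an unadjusted p under 0.05: Mboat2 had a log2 change of 1.94, Lclat1 one of 0.38 and Mboat1 one of 0.97. The call of Mboat1 was lost in 13 alternatives, among them leaving out any library except WT replicate 1.

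**Figure D2:**
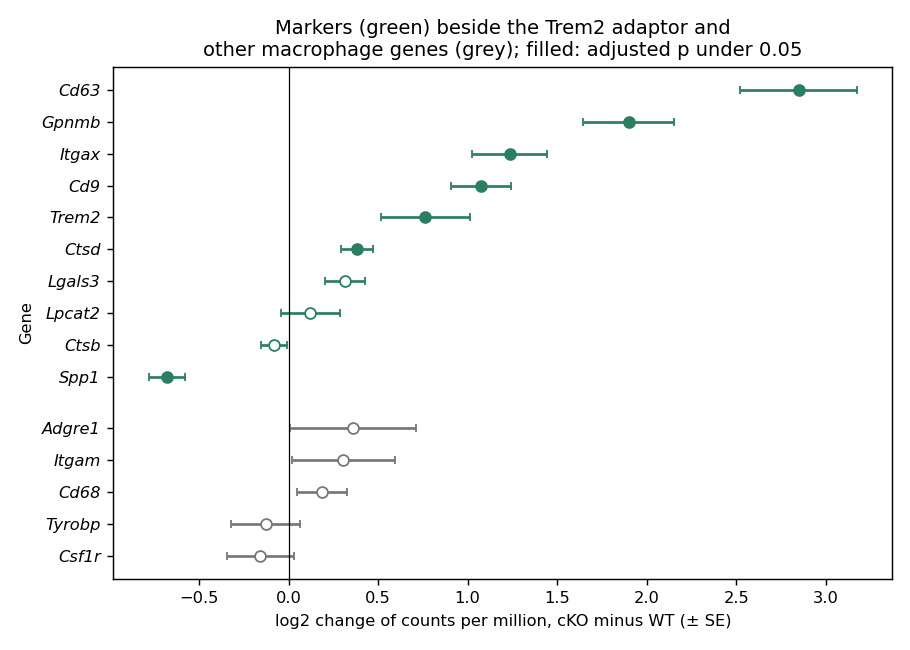
Log2 change of CPM from WT to cKO with its standard error for the 10 markers (green) and for Tyrobp, Adgre1, Csf1r, Cd68 and Itgam (grey); filled points have an edgeR adjusted p under 0.05. Cd63 lies at 2.85 and Spp1 at -0.68, and the 5 grey genes lie between -0.16 and 0.36 with open points. Of these, Adgre1 and Itgam passed when WT replicate 4 was left out.

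The partners of the markers in macrophages were read from the same fit. Tyrobp, the adaptor through which Trem2 signals, had 9.97 to 15.6 CPM in WT and 7.37 to 13.5 CPM in cKO. The log2 change of Tyrobp was -0.13 (SE 0.20) with an edgeR adjusted p of 0.652, and it turned to 0.02 without WT replicate 4 and to 0.03 without cKO replicate 3. Of 14 genes of Trem2 signalling and macrophage growth factor supply, 2 were higher and 0 lower (1 lower with DESeq2), close to the 15.2% of all tested genes called higher. The higher genes were Adam10, a protease that sheds Trem2 from the cell surface, with a log2 change of 0.74, and Il34, a ligand of Csf1r, with 0.76. Without WT replicate 4, 4 were higher. The lectin receptor Clec7a had a log2 change of 0.64 and did not pass (edgeR adjusted p = 0.061; 0.0198 without WT replicate 4).

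General macrophage markers were mostly not called. Of 8 tested, 0 were higher and 1 was lower (at an unadjusted p under 0.05, 0 were higher and 1 lower; DESeq2 called 0 higher and 1 lower). Their median log2 change was 0.10, and its sign rested on single libraries: it was -0.16 without cKO replicate 2, -0.02 without WT replicate 1 and 0.23 without WT replicate 4. Csf1r, the receptor that macrophages need for survival, and Cd68, a lysosomal glycoprotein, had log2 changes of -0.16 and 0.19 (edgeR adjusted p = 0.561 and 0.344). The lower gene, Mertk, a receptor for dying cells, had -0.22, a call that 11 alternatives ended, among them the fits lacking any of WT replicates 1 to 3 or cKO replicates 1 and 3 (edgeR adjusted p 0.0526 to 0.0929). The summed level of the 8 was 123 to 193 CPM in WT and 121 to 209 CPM in cKO. Adgre1, the F4/80 antigen, had 2.63, 3.52, 2.61 and 7.14 CPM in WT and 4.90, 6.06, 3.31 and 6.08 CPM in cKO. WT replicate 4 was the highest of all. Adgre1 had a log2 change of 0.36 (SE 0.35, edgeR adjusted p = 0.478), and of 0.80 without WT replicate 4 (adjusted p = 0.0171), so that the absence of a call for Adgre1 rests on that library.

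Ratios to macrophage genes were mixed. The log2 ratio of Itgax to Itgam, another integrin partner of Itgb2, rose from 0.50 ± 0.40 to 1.41 ± 0.35, by 0.91 (exact two-sided permutation test, p = 0.0286, adjusted p = 0.0429). That of Gpnmb to Adgre1 went from -3.37 ± 0.64 to -2.05 ± 0.72, a difference of 1.32 that did not pass (exact two-sided permutation test, p = 0.0571, adjusted p = 0.0686). That of Trem2 to Adgre1 went from -1.16 ± 0.47 to -0.66 ± 0.32, a difference of 0.51 (exact two-sided permutation test, p = 0.143, adjusted p = 0.143). The ratios of Cd63, Itgax, Ctsd and Spp1 to their comparison genes thus separated the genotypes, and those of Trem2 and Gpnmb to Adgre1 overlapped. Without WT replicate 4 the difference was 0.74 for Itgax to Itgam, 1.03 for Gpnmb to Adgre1 and 0.32 for Trem2 to Adgre1.

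**Figure D3:**
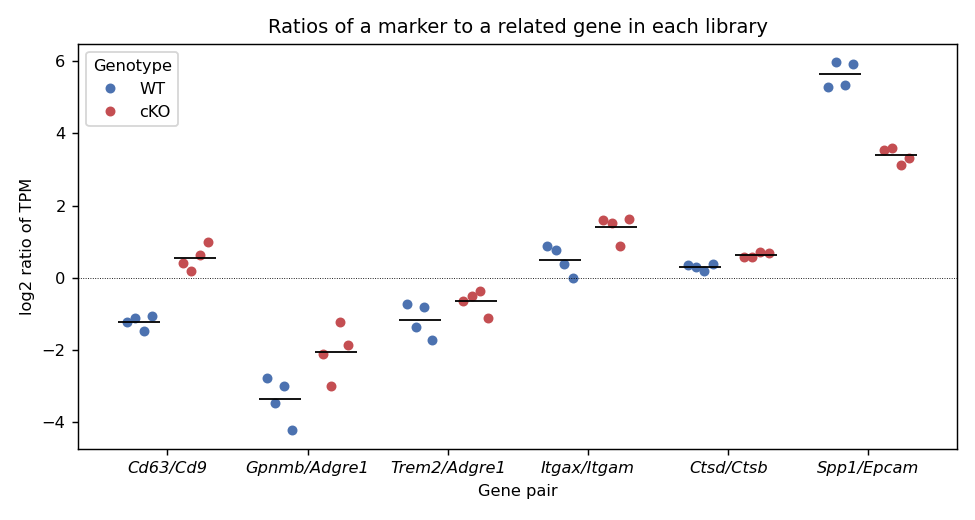
Log2 ratio of TPM for 6 gene pairs in each library, with WT in blue, cKO in red and a bar at each mean. The WT and cKO points are separate for Cd63/Cd9, Itgax/Itgam, Ctsd/Ctsb and Spp1/Epcam, and they overlap for Gpnmb/Adgre1 and Trem2/Adgre1.

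Other genes reported in lipid-associated macrophages moved mainly upward. Of 19 tested, 10 were higher and 0 lower by edgeR, and DESeq2 called 12 higher and 1 lower. The median log2 change was 0.43. The summed level of the 19, with Apoe as the largest part, was 26389 to 29028 CPM in WT and 22465 to 27240 CPM in cKO. Apoe had a log2 change of -0.23 and did not pass (edgeR adjusted p = 0.0876). Mmp12, a macrophage elastase, had 0 to 0.354 CPM in WT and 0.748 to 1.52 CPM in cKO. Its WT level rested on few reads, and the log2 change of 3.24 was 4.47 without WT replicate 2. Lipa, which breaks down lipids in the lysosome, Plin2, a lipid droplet coat protein, and Cd36, a fatty acid receptor, had log2 changes of 0.47, 0.77 and 2.34. Lipa, Plin2 and Cd36 are also expressed by hepatocytes. Of 24 other lysosomal genes, of which 5 are shared with the former list, 9 were higher and 1 lower. Among them the cysteine protease Ctsl had a log2 change of 0.40 and Hexa, which encodes a glycosidase subunit, one of 0.45. The lysosomal count fell to 4 higher in the fits lacking WT replicate 1, WT replicate 3 or cKO replicate 4, and it was 16 under limma on log2(TPM + 1).

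Markers of other immune cells were read against the 15.2% of all tested genes called higher. Of 12 Kupffer cell markers 2 were higher and 0 lower, a share close to that of all genes: Marco, with a log2 change of 0.61, and Clec1b, with 0.44, a call lost without WT replicate 1, 3 or 4 or cKO replicate 1, 2 or 4 (edgeR adjusted p 0.0595 to 0.0892). The summed level of the 12 was 468 to 598 CPM in WT and 415 to 562 CPM in cKO. The sign of their median log2 change, -0.06, was not stable. It was 0.10 without WT replicate 4, 0.08 without cKO replicate 3 and 0.04 with library size alone. Of 9 tested markers of monocytes and recruited macrophages, 3 were higher and 0 lower: S100a4 (log2 change 0.98), Cx3cr1 (0.86) and Ms4a7 (0.92), the latter pair losing the call under 5 and 8 alternatives. Cx3cr1 lost it without WT replicate 2, 3 or 4 or cKO replicate 1 or 4, and Ms4a7 without WT replicate 1, 3 or 4 or cKO replicate 1, 2 or 3. Their summed level was 43.0 to 66.7 CPM in WT and 35.6 to 57.8 CPM in cKO. With a minimum of 1 CPM in 4 libraries only 2 of these markers could be tested, and 0 were called. Of 11 dendritic cell markers, 2 were higher and 0 lower, again close to the share of all genes, Flt3 (log2 change 1.40) and Cd209a (1.79). The summed level of the 11 was 107 to 180 CPM in WT and 116 to 165 CPM in cKO. Flt3 had 8 to 16 and Cd209a 2 to 11 reads per WT library. With a minimum of 1 CPM in 4 libraries 6 of the 11 could be tested, and 0 were called. Of 5 tested neutrophil markers, 0 passed by edgeR, also 0 at an unadjusted p under 0.05, while DESeq2 called 1 higher, and Ly6g had 0 counts in every library. The summed level of the 8 neutrophil markers was 3.76 to 6.30 CPM in WT and 3.68 to 11.7 CPM in cKO. The value of 11.7 CPM was that of cKO replicate 2, and cKO replicates 1, 3 and 4 stood at 3.68, 3.70 and 3.82 CPM.

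The cell type list that moved most was that of stellate cells and fibroblasts, the matrix-producing cells of the liver. Of 12 tested, 11 were higher and 0 lower, with a median log2 change of 1.19, and their summed level was 137 to 152 CPM in WT and 307 to 409 CPM in cKO. The vitamin A enzyme Lrat had a log2 change of 1.45, the matrix protein Dcn one of 1.57, the growth factor receptor Pdgfra one of 1.63 and the matrix protein Lum one of 1.89. Of 7 markers of T and NK cells, 5 were higher and 0 lower, with a summed level of 2.48 to 3.51 CPM in WT and 4.71 to 8.83 CPM in cKO. The number of these called higher was 3 without WT replicate 3, 6 with library size alone and 1 at an adjusted p under 0.01. None of the 7 could be tested with a minimum of 1 CPM in 4 libraries. Of 7 endothelial markers, 0 passed by edgeR, while 1 was higher at an unadjusted p under 0.05 and 1 with DESeq2, with a summed level of 87.3 to 162 CPM and 115 to 182 CPM. Stellate cell and T and NK cell levels thus moved with genotype in the same libraries as the markers, and their part in the change of any marker was not tested.

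**Figure D4:**
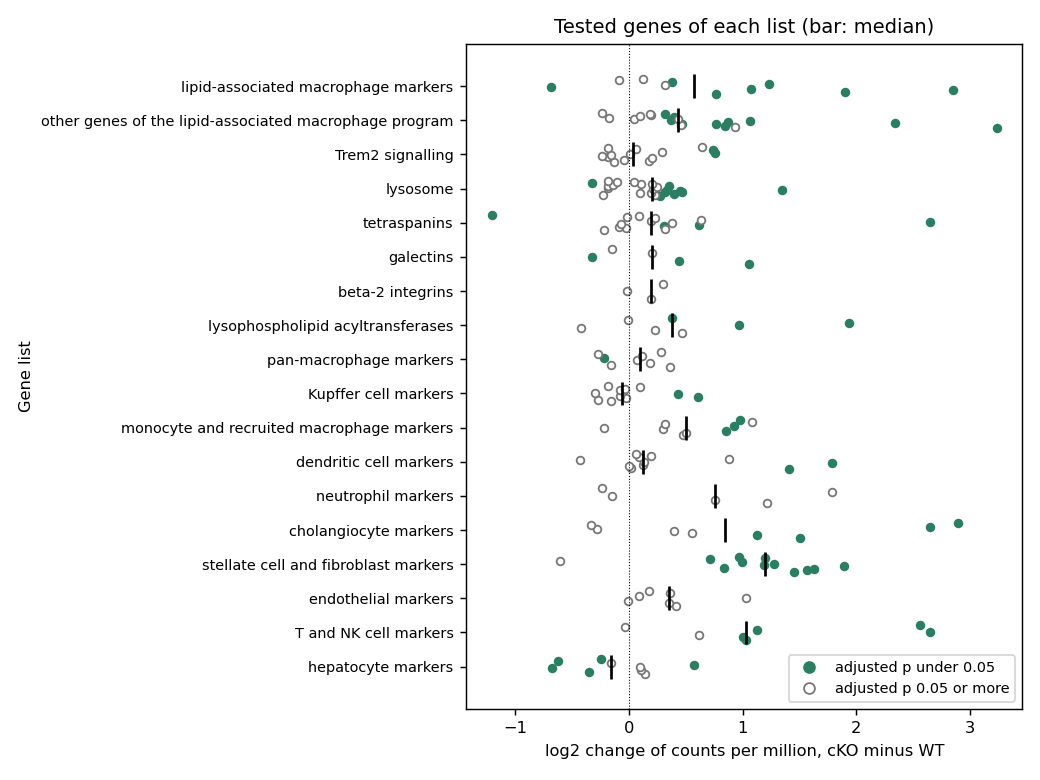
Log2 change of CPM from WT to cKO for each tested gene of 18 lists, with green points for an edgeR adjusted p under 0.05, open points otherwise and a bar at each median. The median is 0.57 for the 10 markers, 0.10 for general macrophage markers, -0.06 for Kupffer cell markers and 1.19 for stellate cell and fibroblast markers. The general macrophage and Kupffer cell medians changed sign when some single libraries were left out.

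Within cKO the markers did not vary together. Trem2, Itgax and Lpcat2 were highest in cKO replicate 2, followed by replicates 1, 4 and 3. Cd9 had the reverse of that order, and Cd63 and Gpnmb were highest in replicate 4, followed by replicates 3, 1 and 2. The highest cKO library exceeded the lowest by 2.52-fold for Cd63, 2.01-fold for Gpnmb, 1.73-fold for Cd9, 1.64-fold for Trem2 and 1.17-fold for Ctsb. Over all markers, cKO replicate 3 was the lowest library for 6 and replicate 2 for 4 of the 10.

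The other lists also split. cKO replicate 3 was the lowest cKO library for 7 of 8 general macrophage markers, 10 of 12 Kupffer cell markers, 10 of 11 dendritic cell markers and 7 of 7 endothelial markers, where 24.7% of all tested genes had it lowest. cKO replicate 2 was the lowest for 11 of 12 stellate cell and fibroblast markers, 12 of 24 lysosomal genes, 10 of 19 other genes of lipid-associated macrophages and 4 of 9 markers of monocytes and recruited macrophages, where 24.8% of all tested genes had it lowest. Replicate 3 was lowest for 1 of those 9. The highest library differed too: it was replicate 2, as for Trem2 and Itgax, for 6 of 8 general macrophage and 8 of 12 Kupffer cell markers, but replicate 1 for 9 of 11 dendritic cell markers and replicate 4 for 7 of 7 endothelial markers. With 4 libraries this order is a description and carries no test.

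**Figure D5:**
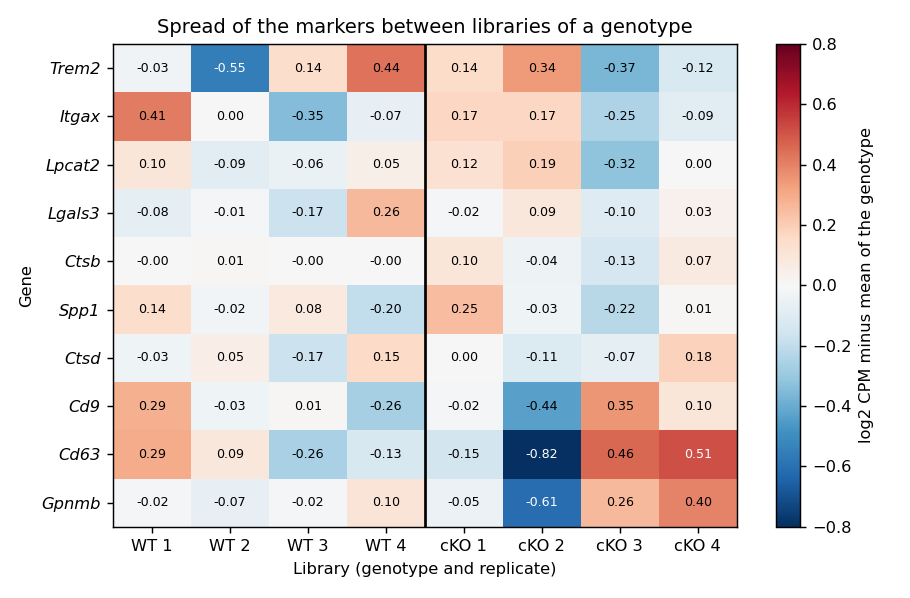
Log2 CPM of each marker minus the mean of its genotype, for the 8 libraries (red above, blue below the mean). In cKO replicate 2 Cd63 lies at -0.82 and Gpnmb at -0.61 while Trem2 lies at 0.34, and in cKO replicate 3 the signs are opposite.

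Profiles most like those of 3 markers were looked for among 13160 tested genes, by the Euclidean distance between centred log2 CPM over the 8 libraries. A count of about 2 was added before the log, which draws in the changes of genes with few reads. Nearest to Trem2 were Nipa1, Ptafr and Usp18, at distances of 0.39, 0.51 and 0.54. Ptafr is the receptor for platelet-activating factor and Usp18 an interferon-induced protease. Their log2 changes were 0.78, 0.61 and 0.42, and Ptafr and Usp18 did not pass (edgeR adjusted p = 0.0599 and 0.0878). Nearest to Gpnmb were Cyp39a1, an enzyme of oxysterol metabolism, the matrix proteoglycan Dcn and the sialidase Neu3, at 0.39, 0.50 and 0.55. Nearest to Cd63 were the cyclin Ccnd1, the tight junction gene Cldn4 and the keratin Krt20, at 0.72, 0.92 and 0.95. Krt20 had 0 counts in each of the 4 WT libraries and 0.211 to 0.494 CPM in cKO. Its fitted log2 change was 7.27, against 2.85 for Cd63, so its nearness to Cd63 depends on the added count. Ccnd1 rose from 5.17 ± 1.24 to 31.9 ± 8.87 CPM (n = 4 each).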

How the data were processed

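RNA from whole liver was sequenced in 8 libraries, 4 WT and 4 cKO. Reads were processed by the authors with STAR 2.5.1 and RSEM on mm10, per the submitters' processing notes. The deposited RSEM gene tables hold expected counts (reads assigned in proportion), TPM and FPKM, per the file headers. FPKM was not used. Whether counting used strand is not given in the sources used here.

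Expected counts were rounded. Genes were filtered with filterByExpr (minimum count 10, total 15), leaving 15562, and tested with edgeR 4.0.16 (R 4.3.3; TMM factors, robust quasi-likelihood fit, Benjamini-Hochberg over all genes tested, threshold 0.05). CPM were scaled to totals times TMM factors. SE is the absolute log2 change divided by the square root of F. Ratios of TPM were tested by exact permutation over the libraries. Alternatives, including DESeq2 1.42.0 and limma 3.58.1, are given in the closing section.

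The 10 markers and the lists were chosen with earlier results of these data known. Named were the markers, Ctcf, genes of the 6 pairs, up to 4 genes with the smallest p from each list, and the 3 nearest profiles of Trem2, Gpnmb and Cd63, found without predicted symbols. The values of 1 gene that this rule names are not reported here. Tyrobp, Csf1r, Cd68 and Clec7a were named in addition after values were seen, as were Ly6g, Hnf4a and Alb. In simulated data for cKO against WT with 15367 genes, the fit recovered 67.2% of 67 genes with a 1.5-fold change. It recovered 91.0% of 67 at 2-fold and 98.5% of 66 at 4-fold, and 4.47% of its calls were unchanged genes. The changed genes were drawn only from those with a mean above 1 CPM, and recovery at lower levels was not simulated. Trem2, Gpnmb and Itgax were below 1 CPM in every WT library. Far fewer genes were changed than were called in the data, so the share of unchanged genes among calls need not carry over. No 2 libraries of a genotype agreed within sampling noise.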

Additional observations from a re-analysis of the deposited data

Results flagged for a closer look

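In Ctsb, WT replicate 2 stood at 481 CPM, apart from the other 3 WT libraries at 476 to 477 CPM; the gap is small beside the level and the cKO libraries lay at 411 to 482 CPM. In the log2 ratio of Itgax to Itgam in TPM, cKO replicate 3 stood at 0.89, below the other cKO libraries at 1.51 to 1.63, and just above the highest WT library at 0.87. Each was marked because 1 library stood far from the other 3 of its genotype (Dixon's test). Of 32 groups checked in this way, chance marks about 1 in 20.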

How the results depend on the processing

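Calls of Gpnmb, Cd63, Cd9, Spp1, Itgax and Ctsd kept their direction and stayed under an adjusted p of 0.05 in each alternative that tested them, and Gpnmb and Trem2 were not tested with a minimum of 1 CPM in 4 libraries. Of all genes, 2367 were higher and 2322 lower; library size alone gave 3604 and 1318, dropping the 20 most abundant genes from that size gave 1425 lower, limma on log2(TPM + 1) gave 3880 and 878, on log2(TPM + 0.1) 3868 and 876, and an adjusted p under 0.01 gave 1165 and 1050. Ctsb changed sign under library size alone (0.023), under the effective length offset (0.041) and in limma on log2(TPM + 1) and log2(TPM + 0.1) (0.206 and 0.207). In the same limma fits Csf1r was 0.036 and 0.039, and Tyrobp 0.044 and 0.045. Leaving out 1 library, Tyrobp ran from -0.226 to 0.034. The cause was not tested. The ratio of Gpnmb to Adgre1 passed in CPM (1.41, exact permutation test, adjusted p = 0.0343). Leaving out 1 library, the difference in log2 ratio ran from 1.62 to 1.89 for Cd63 to Cd9, 0.74 to 1.08 for Itgax to Itgam, 0.29 to 0.36 for Ctsd to Ctsb and -2.36 to -2.14 for Spp1 to Epcam, where 3 against 4 libraries cannot pass.

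Whether replicate numbers pair the libraries was not settled. Deviations of same-numbered libraries correlated at only 0.0417 to 0.0567, yet 6 of 8 libraries correlated best with their own number. With the replicate number as a block 2525 genes were higher and 2419 lower, the adjusted p of Trem2 was 0.069 and that of Lgals3 0.0395. Trem2, Gpnmb and Itgax rested on 15 to 104 reads per library, which limits their precision.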
